A study of Mus musculus with 2 samples.

Results

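The miR-23, miR-24 and miR-27 group is made of 5 microRNAs (miRNAs), mmu-miR-23a, mmu-miR-23b, mmu-miR-24, mmu-miR-27a and mmu-miR-27b (written below without the species prefix), out of 1080 miRNAs on the array. They were taken by name from the array's annotation, with every probe that carries one of these names. Levels were read in the medial mandibular arch of ICR mouse embryos, from which the tongue forms, at the embryonic stages E10.5 and E11.5, 1 day apart. Each stage is 1 pool of RNA from 40 embryos on 1 Cy3-labelled array. The labels name no allele and no agent given to the animals. There are no replicates, so no difference was tested and each value describes these 2 arrays. All 5 miRNAs were detected at both stages, against 13.3% of the 1080 miRNAs at E10.5 and 18.4% at E11.5. After scaling to the detected miRNAs, the b forms, miR-23b and miR-27b, were higher at E11.5, by 1.67-fold and 1.52-fold. miR-23a and miR-24 were 1.31-fold and 1.30-fold higher, and miR-27a was at 1.02-fold.

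The group comes from 2 paralogous gene clusters, each of which holds a miR-23, a miR-27 and a miR-24 precursor close together. A miRNA pairs with messenger RNAs mainly through its seed, bases 2 to 8, so paralogs with one seed are expected to share most targets. In muscle progenitors miR-27 is known to repress Pax3, the transcription factor that keeps these cells undifferentiated. miR-24 is known to favour myoblast differentiation, and miR-23a to repress genes of muscle protein breakdown. Both clusters are also known from endothelial cells.

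The mature sequences show how alike the paralogs are, and are given 5′ to 3′ with the seed in capitals. They are those of RefSeq (GRCm38.p6), where 4 of the 5 members were matched, all but miR-23b.
miR-23a: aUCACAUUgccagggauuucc
miR-24: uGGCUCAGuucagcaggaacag
miR-27a: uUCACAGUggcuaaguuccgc
miR-27b: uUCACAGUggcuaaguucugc
miR-27a and miR-27b share their seed and differ by 1 substitution, C19U, counted from the 5′ end of the miRNA. Of the miRNAs in the RefSeq table outside the group, 4 have the seed of miR-24 and none has that of miR-23a or miR-27, and the 4 were not on the array under those names.

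The array's probes decide whether the paralogs can be read apart, and those of the paralog pairs are given here as deposited, 5′ to 3′, with the base that differs between the a and the b form in capitals.
miR-23a, 17 bases: ggAaatccctggcaatg
miR-23a, 18 bases: ggAaatccctggcaatgt
miR-23b, 17 bases: ggTaatccctggcaatg
miR-23b, 16 bases: ggTaatccctggcaat
miR-27a, 16 bases: gcGgaacttagccact
miR-27a, 17 bases: gcGgaacttagccactg
miR-27b, 17 bases: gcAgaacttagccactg
miR-27b, 16 bases: gcAgaacttagccact
Over their common length, the miR-23a and miR-23b probes differ by A3T and the miR-27a and miR-27b probes by G3A, counted from the probe's 5′ end. The probes of miR-27a and miR-27b pair with bases 5 to 21 or 6 to 21 of the miRNA, those of miR-23a with bases 4 to 21 or 5 to 21, and so reach only part of the seed. How far a probe also reads the other paralog, 1 base apart, was not tested.

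The miR-24 probes cannot assign their signal to a cluster, because both clusters encode the same mature miR-24. The 2 precursors are shown with the mature sequence in capitals.
Mir24-1: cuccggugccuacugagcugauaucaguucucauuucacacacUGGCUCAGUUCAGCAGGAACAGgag
Mir24-2: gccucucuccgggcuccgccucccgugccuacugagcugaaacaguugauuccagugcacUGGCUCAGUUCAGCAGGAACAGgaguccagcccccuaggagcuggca
In the scanner files (mm9), the probe targets of miR-23a, miR-27a and miR-24 lie on chromosome 8 between 86732466 and 86732795, a span of 330 bases. Those of miR-23b, miR-27b and miR-24 lie on chromosome 13 between 63401842 and 63402580, a span of 739 bases. The listed targets are 86732467 to 86732482 for the 17-base miR-23a probe, 63401842 to 63401857 for the 17-base miR-23b probe, 86732631 to 86732646 for the 17-base miR-27a probe and 63402073 to 63402088 for the 17-base miR-27b probe. For these 4 probes the listed span is 1 base shorter than the probe. In the GRCm38.p6 gene table the chromosome 13 precursors lie within the span of the protein-coding gene Aopep, with no word on exon or intron. No gene span other than their own holds Mir23a or Mir27a, and the nearest genes that are not miRNAs are Zswim4 and Nanos3.

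The detected miRNA probes were mostly brighter on the E11.5 array, and this bears on every value below. Of the array's probes, 218 were detected on both arrays, meaning that 50% or more of a probe's spots were well above background by the scanner software's flag. Over these probes the unscaled log2 ratio of E11.5 to E10.5 had a median of 1.20. Each array was therefore divided by its 75th percentile over these probes, which took 1.31 off every log2 difference. A scaled difference is log2 E11.5 minus log2 E10.5 after that step, and shows abundance relative to the other detected miRNAs. Negative controls were not brighter at E11.5 (means of 7.98 and 5.99), and scaling to the 20 control probes detected on both arrays took off 0.40. Over the 137 miRNAs measured at both stages the median scaled difference was -0.07. The error beside a scaled difference is the standard error (SE) over repeated spots, which holds noise within an array and none between arrays or embryos. It also leaves out the spread between probes of one miRNA.

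miR-23b, encoded on chromosome 13, had the highest difference of the group. The spots of its 17-base probe had an unscaled intensity of 183 at the lowest, 198 at the median and 206 at the highest at E10.5, against 765, 806 and 843 at E11.5. Its 16-base probe ran from 43.9 through 49.5 to 56.2 at E10.5, and from 185 through 211 to 231 at E11.5. The E11.5 spots of both probes lay above all E10.5 spots, with no overlap. The scaled log2 differences of these probes were 0.71 ± 0.015 and 0.78 ± 0.036, and their mean, the value of miR-23b, was 0.74 ± 0.019.

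miR-23a, its paralog on chromosome 8, differed by less. Its 18-base probe gave 98.5, 114 and 130 (lowest, median and highest spot) at E10.5 and 311, 371 and 408 at E11.5. Its 17-base probe gave 18.2, 29.1 and 40.4 at E10.5, where 8 of 20 spots were well above background, and 87.3, 105 and 122 at E11.5, where all 19 were. The spots of the stages did not overlap for either probe. As the 17-base probe was not detected at E10.5, the value of miR-23a rests on the 18-base probe, at 0.39 ± 0.035. The 17-base probe, not used for that value, was at 0.54 ± 0.070.

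miR-27b, the form best known for its action on Pax3, was the second highest of the group. Spots of its 17-base probe lay at 94.9, 107 and 119 at E10.5, and at 376, 401 and 426 at E11.5. The 16-base probe was detected at E11.5 only, with spots at 11.1, 19.3 and 32.1 at E10.5 and at 69.3, 80.7 and 87.9 at E11.5. Both probes had every E11.5 spot above every E10.5 spot. The scaled difference of the 17-base probe, and so of miR-27b, was 0.61 ± 0.027, and the 16-base probe, not used for that value, gave 0.65 ± 0.096.

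For miR-27a, with the same seed, the array showed almost no relative difference. At E10.5 the spots of its 17-base probe had a lowest, median and highest intensity of 79.7, 94.7 and 107, and at E11.5 of 219.8, 233 and 254. The 16-base probe gave 21.6, 26.96 and 34.1 at E10.5, where 1 of 14 spots was well above background, and 55.0, 78.4 and 91.9 at E11.5. Unscaled, the stages did not overlap. After scaling, miR-27a was at 0.03 ± 0.030, a difference within its spot SE, and its undetected 16-base probe was at 0.15 ± 0.063. The sign of this difference depended on the processing, and it was at -0.17 with normexp background correction.

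miR-24, the product of both clusters, lay with miR-23a. Its 17-base probe gave 171, 188 and 204 at E10.5, then 516, 584 and 637 at E11.5. Its 18-base probe gave 216, 243 and 263 at E10.5 and 768, 803 and 851 at E11.5. No spots overlapped between the stages. The scaled differences of the probes were 0.34 ± 0.024 and 0.42 ± 0.017, with a mean of 0.38 ± 0.015. Whether one cluster gave more of this miR-24 signal than the other cannot be told apart from the mature sequence.

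**Figure D1:**
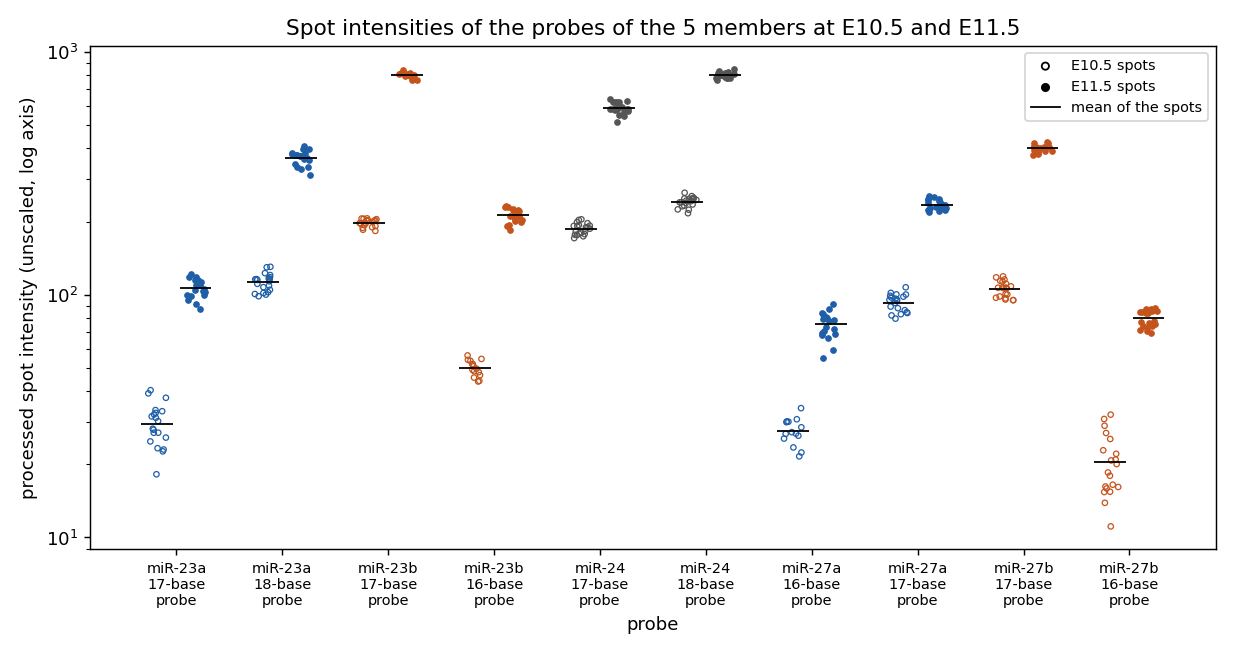
Processed spot intensity (unscaled, log axis) of the 10 probes of the group, with 1 point per spot without an outlier flag, open for E10.5 and filled for E11.5, in blue for the a forms, orange for the b forms and grey for miR-24. Black bars are the means over the spots. The filled points lie above the open ones for all 10 probes, and over all detected probes the median log2 ratio of E11.5 to E10.5 was 1.20.

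Without scaling, all 5 members were brighter at E11.5, as were 90.5% of the 137 measured miRNAs. All 5 were brighter by 2-fold or more, as were 64.2% of them, so these counts say little about the group. The unscaled folds were 4.16 for miR-23b, 3.79 for miR-27b, 3.26 for miR-23a, 3.23 for miR-24 and 2.53 for miR-27a. All 7 member probes detected on both arrays had no overlap of spots between the stages, against 80.7% of the 218 detected probes. After scaling, 0 of 5 were at least 2-fold apart, against 3.65% of measured miRNAs at least 2-fold higher and 13.9% at least 2-fold lower. The 5 members were all above 0 as scaled, against 47.4% of the measured miRNAs, with a median of 0.39 for the group and -0.07 for all. The count of members above 0 fell to 4 of 5, by miR-27a, under 5 alternatives. Of all miRNAs measured under them, 38 of 137 were above 0 with normexp background correction and 66 of 169 with the total gene signal. With every spot well above background 50 of 119 were, with no detection filter and a floor 55 of 1080, and with the median over spots 63 of 137.

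In the order of scaled differences over the 137 measured miRNAs, miR-23b was number 8 from the top, miR-27b number 12, miR-23a number 26, miR-24 number 27 and miR-27a number 64. Within the group, miR-23b exceeded miR-27b by 0.14 ± 0.033, and miR-27b exceeded miR-23a by 0.22 ± 0.044. miR-23a and miR-24 differed by 0.01 ± 0.038, which is within the spot SE, but with normexp background correction they were at 0.19 and 0.35. miR-27a lay below miR-24 by a log2 difference of -0.35 ± 0.034. Both b forms thus stood above both a forms and miR-24, but for miR-27b this order depended on the processing. With no detection filter and a floor, miR-27b (0.33) lay below miR-23a (0.43) and miR-24 (0.38). With normexp background correction, miR-27b (0.353) and miR-24 (0.351) were nearly equal.

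**Figure D2:**
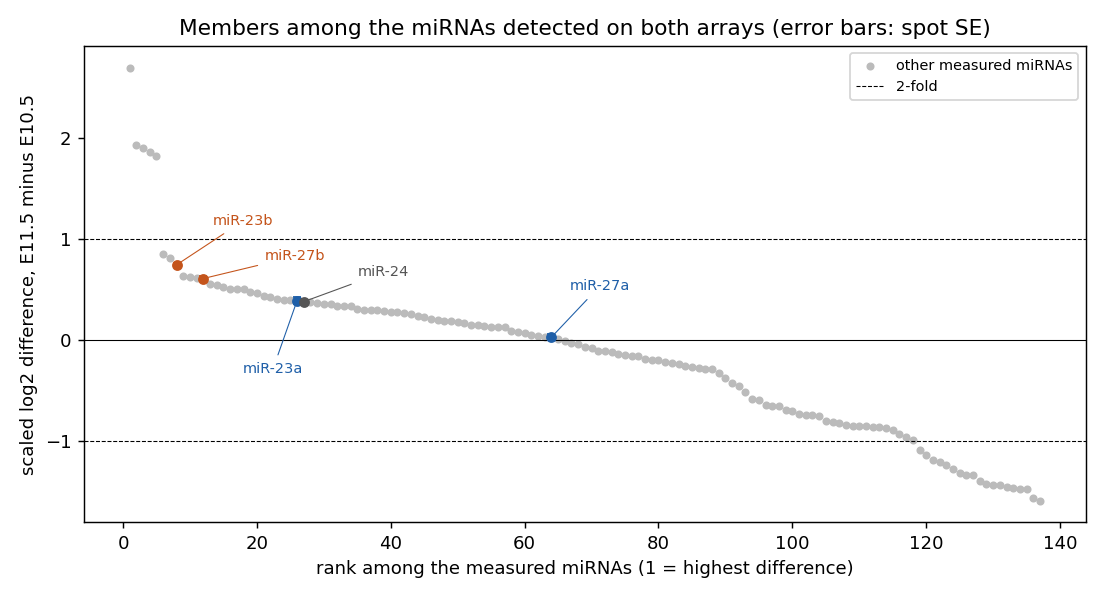
Scaled log2 difference, E11.5 minus E10.5, of the 137 miRNAs detected on both arrays against their rank, with the 5 members coloured (blue for a forms, orange for b forms, dark grey for miR-24) and their spot SE as error bars. Dashed lines mark 2-fold. miR-23b (0.74) and miR-27b (0.61) lie near the top, miR-23a (0.39) and miR-24 (0.38) side by side, and miR-27a (0.03) near 0.

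The comparison of the paralogs is less touched by the scaling than the difference of each miRNA is. A factor common to an array cancels when the difference of one miRNA is taken from that of the other. This holds for any contrast of 2 miRNAs, so also for those within a cluster and against miR-24. miR-23b exceeded miR-23a by 0.35 ± 0.040 on the log2 scale, or 1.28-fold. miR-27b exceeded miR-27a by 0.58 ± 0.041, or 1.50-fold. These contrasts are larger than the spot SE, but with 1 array per stage they have no test. The spot SE does not cover gaps between probes, such as that between the miR-23a probes at 0.39 and 0.54. The b form was the higher in both pairs. Among the 10 other pairs of measured miRNAs whose names differ by the letters a and b, chosen after their values were seen, the b form was higher in 20%. The letters are only names within each family, so this share cannot show that the order in the miR-23 and miR-27 pairs is unusual. The size of the contrast in those 10 pairs had a median of 0.17, and 3 of them were at least as far apart as the miR-23 pair. 1 of them, miR-99a and miR-99b, was at least as far apart as the miR-27 pair.

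Probes of equal length, which differ by only 1 base, give the closest comparison of the paralogs. The 17-base probes of miR-27b and miR-27a were 0.61 and 0.03, a contrast of 0.58 ± 0.041, and all were detected. The 16-base probes gave 0.65 and 0.15, a contrast of 0.51 ± 0.11, with neither detected at E10.5. For miR-23, the 17-base probes gave 0.71 for miR-23b and 0.54 for miR-23a. That contrast of 0.18 ± 0.072 is about as large as the typical one among the other letter pairs, and the miR-23a probe was not detected at E10.5. The miR-23 contrast thus depended on which miR-23a probe was read, while the miR-27 contrast was of like size with either length.

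The members of a cluster also differed among themselves. On chromosome 8, miR-23a exceeded miR-27a by 0.36 ± 0.047, which is as large as the contrast between miR-23b and miR-23a. On chromosome 13, miR-23b exceeded miR-27b by 0.14 ± 0.033. The miR-27 contrast exceeded the miR-23 contrast by 0.23 ± 0.057. The size of this gap depended on the processing. It was smallest with no detection filter and a floor, where the miR-27 contrast was 0.33 and the miR-23 contrast 0.32.

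**Figure D3:**
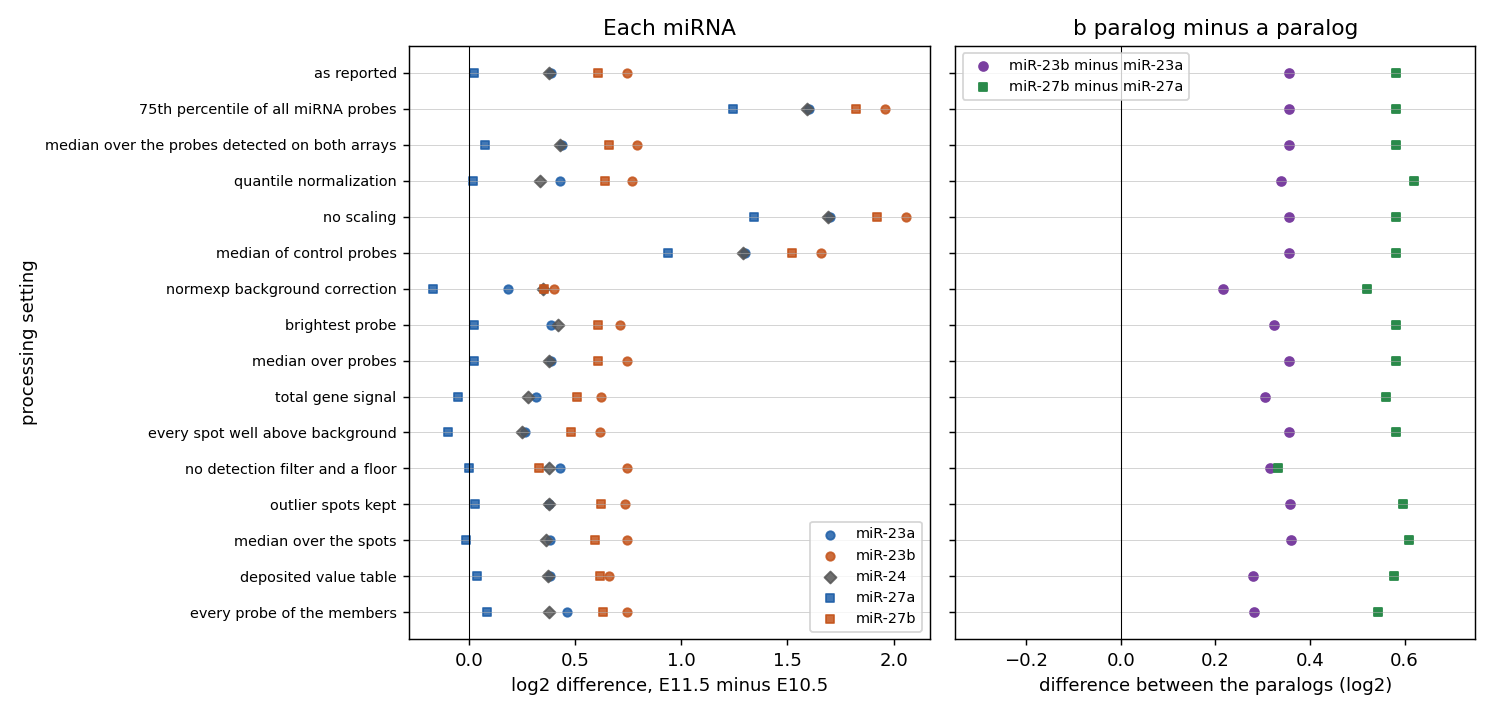
The left panel shows the log2 difference, E11.5 minus E10.5, of each member (horizontal axis) under each processing setting (vertical axis), and the right panel the b form minus the a form in each pair. In the left panel the values shift together with the scaling, and miR-27a lies below 0 in 5 settings. In the right panel the miR-23 contrast runs from 0.22 to 0.36 and the miR-27 contrast from 0.33 to 0.62, all above 0. Settings that change only the factor of each array cannot move these contrasts.

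The passenger strands, the other arms of the same precursors, could separate the clusters even for miR-24, since those of Mir24-1 and Mir24-2 differ. The array carries 6 of them on 18 probes: miR-23a*, miR-23b*, miR-24-1*, miR-24-2*, miR-27a* and miR-27b*. None of the 18 probes had a spot well above background at either stage. Their mean intensities ran from -6.38 to 5.51 at E10.5 and from -5.68 to 14.3 at E11.5. Negative controls averaged 7.98 ± 5.10 (SD over 962 spots) and 5.99 ± 4.87 (SD over 968 spots). At E11.5, 1 of the 18 probes had a mean above that of the negative controls, a probe of miR-24-1*, the arm made from chromosome 13. It gave 5.51 ± 6.01 at E10.5 and 14.3 ± 3.91 at E11.5 (SD over 20 spots each), and the other miR-24-1* probe gave 2.30 ± 5.65 and 5.40 ± 4.08. The highest negative control spot at E11.5 was at 22.3. The miR-24-2* probes gave -0.37 ± 4.02 and -1.86 ± 4.50 at E11.5. As these probes are not well above background, no fold was taken.

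Genes on the opposite strand of both Mir24 loci, Mir3074-1 and Mir3074-2, yield miRNAs nearly complementary to miR-24 and its other arm. They were chosen after their values were seen. The array has 3 of these miRNAs on 6 probes, miR-3074-5p, miR-3074-1-3p and miR-3074-2-3p. None of the 6 probes was detected, with means from -4.07 to -1.39 at E10.5 and from -2.88 to 1.67 at E11.5.

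**Figure D4:**
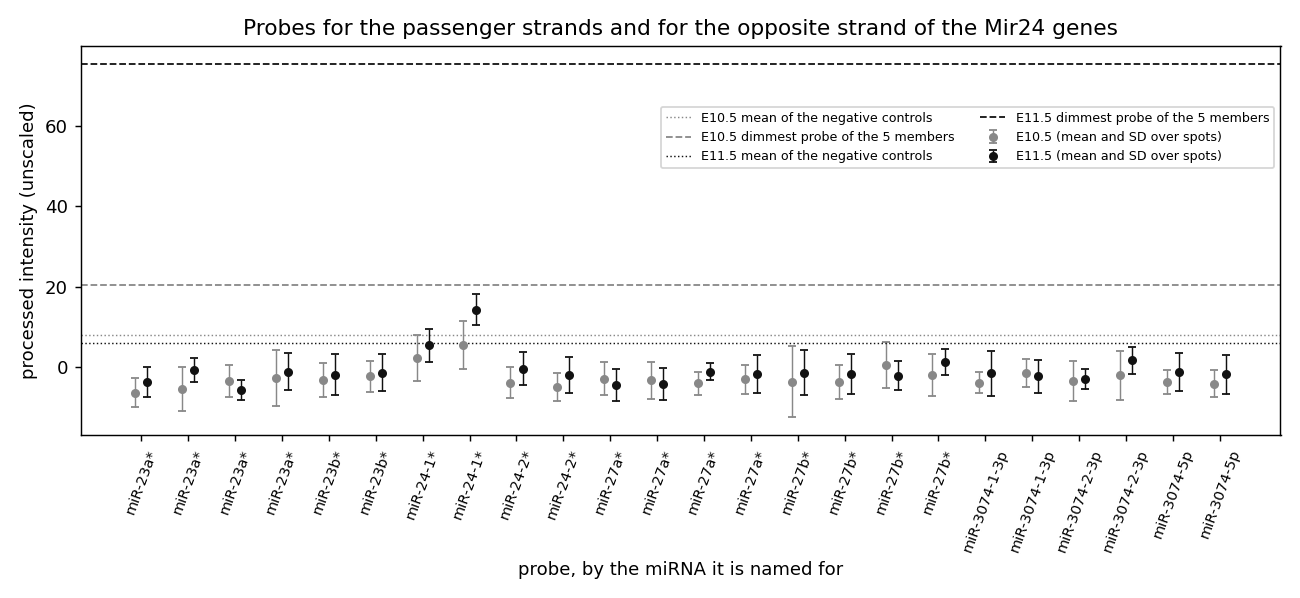
Unscaled processed intensity of the 18 passenger strand probes and the 6 probes for the strand opposite Mir24, as mean and SD over spots, in grey for E10.5 and black for E11.5. Dotted lines are the means of the negative controls and dashed lines the dimmest probe of the 5 members at each stage (20.4 and 75.4), which lie above all 24 probe means of that stage.

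Of the miRNAs known to act on Pax3 or Pax7 in muscle progenitors, or induced with myogenesis, 7 were listed and 6 were on the array under the listed name. miR-27a and miR-27b were the 2 measured at both stages, at 0.03 and 0.61. The other 4, miR-1a, miR-133a, miR-133b and miR-206, all products of differentiating striated muscle, were detected at E11.5 only. miR-206, which represses Pax3 and Pax7, had a brightest probe mean of -1.87 at E10.5 and 284 at E11.5. The miR-27 forms thus were the members of that list already detected at E10.5.

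A second list held 12 other miRNAs linked to myoblasts in other tissues, of which 8 were measured at both stages. Of the 8, 7 were above 0 and 1 below, with a median of 0.17. Over all measured miRNAs, 47.4% were above 0 and the median was -0.07. The list was chosen with earlier results of these data known, so this comparison cannot show that it stands apart. The highest of the 8 was miR-503, a cell cycle regulator of the miR-16 family, at 0.62 ± 0.054. The lowest was miR-181b at -0.33 ± 0.030. 0 of the 8 were at least 2-fold apart, against 17.5% of the measured miRNAs, so this count says little about the list. Of the remainder, miR-181a was detected at E11.5 only, and miR-155, miR-221 and miR-222 at neither stage.

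By distance in scaled difference over the 2 arrays, the non-members nearest to the median of miR-23b and miR-27b (0.68) were miR-376a at 0.64, miR-503 at 0.62 and miR-127 at 0.61. Nearest to the median of miR-23a and miR-27a (0.21) were miR-532-3p at 0.20, miR-376c at 0.20 and miR-409-5p at 0.19. With only 2 arrays, likeness here means only a difference of like size.

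Markers of the cell types that the dissected tissue can hold are given because the group is not restricted to 1 cell type. These markers were chosen after their values were seen, so their counts cannot show that a list stands apart. In tissue RNA, fewer cells of a type and less RNA per cell cannot be told apart. Of 2 endothelial miRNAs, miR-126-3p was measured, at -0.81 ± 0.012, and miR-126-5p was detected at neither stage. The summed brightest probes of this list were at 329 (E10.5) and 461 (E11.5). This sum and those below are unscaled, and so include the greater brightness of the E11.5 array. As scaled, miR-126-3p lay below 0 and both b forms above 0. Unscaled, each of them was above 0, with miR-126-3p at 0.50, miR-23b at 2.06 and miR-27b at 1.92. Of 7 epithelial miRNAs 4 were measured and all 4 were below 0, against 52.6% of the measured miRNAs, with a median of -1.37 and sums of 718 and 792. Unscaled, miR-205 and miR-429 were at 0.46 and 0.031, while miR-200b and miR-200c were at -0.15 and -0.28. miR-203 passed the detection rule at E11.5 alone. Of 6 mesenchymal miRNAs 5 were on the array and 3 measured, at 0.28 (miR-199a-5p), 0.081 (miR-199a-3p) and 0.071 (miR-214), all above 0 against 47.4% of the measured miRNAs. The unscaled sums were 6731 and 18210. miR-145 of that list was detected at neither stage, and miR-143 at E11.5 only. Of 2 erythroid miRNAs, miR-451 was measured, at -0.60, with sums of 93.1 and 152, and miR-144 was detected at neither stage. Of 4 leukocyte miRNAs 1, miR-223, passed the detection rule, at E11.5 only, and the sums were 35.3 and 52.9. The 4 skeletal muscle markers were detected at E11.5 only, with sums of 19.2 and 671. The neural miR-9 and miR-124 were detected at neither stage, with sums of -1.72 and 2.86. The part of these cell types in the values of the group was not tested.

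The authors' deposited value table, which holds 1 processed intensity per miRNA, also had all 5 members higher at E11.5. So were 79 of all 169 miRNAs measured from that table, whose log2 values centred on a median of -0.035. There miR-23b stood at 128 and 203 at E10.5 and E11.5, and miR-27b at 61.7 and 94.7. miR-24 stood at 211 and 273, miR-23a at 71.4 and 93.1, and miR-27a at 60.0 and 61.7. Of the 237 different E11.5 values above 0.1 in that table, 188 also occur among its E10.5 values, so its values are largely one set shared by both columns, and its folds are not those of the scanner intensities. The log2 contrasts computed from the authors' deposited table were 0.28 for miR-23b minus miR-23a and 0.58 for miR-27b minus miR-27a.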

How the data were processed

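Total RNA was extracted with an RNeasy Micro Kit, per the labels, and read on 1-colour Agilent arrays for miRNAs. Per the file headers, the intensity of each spot was background-subtracted and spatially detrended by Feature Extraction 10.7.1.1 (design 031184, mm9) and not normalized between arrays. Version 9.5.1.1 is named in the submitters' processing notes. In the deposited value table, intensity is on a linear scale, with 0.1 for undetected miRNAs. Its column medians are 0.1 and 0.1, its highest value is 3256 in both columns, most of its values are shared by both, and its scaling is not given in the sources used here.

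Outlier-flagged spots (12 of 200 member spots at E10.5, 11 of 200 at E11.5) were left out, the others averaged per probe, and each array scaled to the 75th percentile of the 218 probes detected on both. Detected probes of one miRNA were averaged on the log2 scale of the deposited intensity. No member spot was saturated. Precision is limited by the number of arrays. The steps were tested on simulated data. The threshold for counts was 2-fold.

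Members and lists were chosen with earlier results of these data known. Named miRNAs were all members, their passenger strands, miRNAs sharing a seed, the 3 nearest in difference per cluster, and the highest and lowest of the myoblast list. The miRNAs sharing a seed were only counted. Other names (markers, muscle miRNAs, the rest of the myoblast list, miR-99a, miR-99b and the miR-3074 miRNAs) were chosen after their values were seen. Alternatives covered scaling, normexp (offset 50), probe, spot and detection rules, the total gene signal and the value table. Python 3.11.15, numpy 2.4.6, pandas 2.3.3, matplotlib 3.10.9, R 4.3.3 and limma 3.58.1 were used.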

Additional observations from a re-analysis of the deposited data

How the results depend on the processing

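The b form remained above the a form in both pairs under all 15 alternatives, 1 of which (every probe of the members, detected or not) was added after the data were seen. Not all of these could move the contrasts. Settings that change only the factor of each array cancel in them, and with at most 2 probes per member the median over probes equals the mean. The rule of every spot well above background kept the same member probes, and so the same contrasts. The miR-23 contrast fell to 0.22 with normexp background correction, and the miR-27 contrast to 0.33 with no detection filter and a floor, where the floor replaces the 16-base probe values at E10.5. The median difference of the members moved from 0.39 to 1.60 when scaled to the 75th percentile of every probe, 1.70 with no scaling, 1.30 with control probes, 0.32 with the total gene signal, 0.26 with every spot well above background and 0.46 with every probe of the members. The median over all measured miRNAs was then 1.15, 1.24, 0.84, -0.20, -0.16 and -0.07. With normexp the median of the members was close (0.35), against -0.28 over all measured miRNAs. But miR-23a was then at 0.19, miR-23b at 0.40 and miR-27b at 0.35, and with the floor miR-27b was at 0.33. Of the 5 members, 5 were at least 2-fold apart under the first of these and with no scaling, and 4 with control probes. With no scaling, 64.2% of the measured miRNAs were also at least 2-fold higher. These settings raise the median of all measured miRNAs as well, so the counts say little about the group. miR-27a changed sign, to -0.17 with normexp, -0.050 with the total gene signal, -0.099 with every spot, -0.00053 with the floor and -0.013 with the median over spots; the cause was not tested. Signal over background limits the 16-base miR-27 probes and the 17-base miR-23a probe at E10.5. No paired analysis was possible because each stage has 1 array.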
